A study of Mus musculus with 20 samples.

Results

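Major histocompatibility complex (MHC) class I molecules show peptides from inside the cell on its surface. A heavy chain encoded in the H2 complex on chromosome 17 holds the peptide, and β2-microglobulin, encoded by B2m on chromosome 2, is the light chain that heavy chains need to reach the surface. The 8 genes described here are the heavy chains H2-D1, H2-K1, H2-Q4, H2-Q6, H2-Q7, H2-T22 and H2-T23 and the light chain B2m. They were taken by symbol from the 55536 genes of the count table, all 8 were found there, and all 8 passed the filter on low counts that left 16419 genes for testing. H2-D1 and H2-K1 are the classical heavy chains that present peptides to CD8 T cells. H2-Q4, H2-Q6 and H2-Q7 are Qa heavy chains and H2-T22 and H2-T23 heavy chains of the T region. H2-T23 encodes Qa-1, which is recognised by CD94/NKG2A receptors of NK cells. Class I genes are known to respond to interferons and to NF-κB, and in the brain microglia and endothelial cells are known to carry class I molecules.

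RNA sequencing was done on hippocampus of male mice 12 weeks old (strain label C57BL/6J), 7 days after 1 intraperitoneal injection. The 4 groups were Fkbp5-KO mice given lipopolysaccharide (LPS, an outer membrane molecule of bacteria that sets off inflammation) at 3 mg/kg, Fkbp5-KO mice given saline, wild-type (WT) mice given LPS at 3 mg/kg and WT mice given saline, with 5 libraries each. FKBP5 is a co-chaperone of the glucocorticoid receptor. The labels say neither how the knockout allele was made nor whether each library is a separate animal, so the p-values measure the spread between these libraries. Total counts were 16652992 to 27230202 per library.

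Facts of the whole series that touch these genes are as follows. Fkbp5 stood at 29.5 ± 4.06 CPM (library-size scaled counts; mean ± SD, n = 5) in KO LPS and 30.7 ± 4.45 in KO saline libraries, against 66.2 ± 4.87 in WT LPS and 63.1 ± 6.71 in WT saline libraries, so transcript remained in the knockout. The libraries split into replicates 1 and 2 and replicates 3 to 5 of each group along principal component 1 with 52.9% of the variance. Every group held both sets in the same numbers, and the labels name no batch. LPS fold changes over both genotypes are therefore also given within each set, as are genotype ones over both treatments for H2-D1, H2-K1 and B2m. The 8 markers of hippocampal neurons summed to 952 to 1465 CPM in all libraries. The 10 thalamus markers summed to 194 and 204 CPM in WT LPS replicates 1 and 4 and to 154 in KO LPS replicate 1. The other 17 libraries ranged from 97.2 to 157 CPM, so KO LPS replicate 1 lay within their range. These 3 libraries were picked from earlier results of these data for a fit without them.

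The 7 heavy chains lie on chromosome 17 of mm10, 5.48 to 7.52 Mb from Fkbp5 (28399094 to 28517527), and all are annotated as protein coding. H2-K1 (33996017 to 34000347, minus strand) lies nearest to it. H2-D1 (35262730 to 35267499), H2-Q4 (35379617 to 35385290), H2-Q6 (35424850 to 35430055) and H2-Q7 (35439155 to 35443773) follow on the plus strand. H2-T23 (36029773 to 36032855) and H2-T22 (36037128 to 36042747) lie beyond them on the minus strand. B2m lies on chromosome 2 from 122147686 to 122153083. An exon of H2-Q4 overlaps the antisense gene Gm11131, with 51 counts over all 20 libraries, and an exon of H2-T22 overlaps antisense A930015D03Rik, with 61. The strand setting of the counting is not given in the sources used here, so reads of these partners cannot be told apart.

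The promoters of the members show what the family shares in sequence. RefSeq (build GRCm38.p6) held a start site for all 8. The windows searched ran from 250 bases before to 50 after it. The 250 bases before the start are shown, on the gene's strand, for both classical chains, for the Qa gene with the largest fold change after LPS, for a T-region gene and for the light chain. They lie at chr17:35262844-35263093 on the plus strand (H2-D1), chr17:34000334-34000583 on the minus strand (H2-K1, the first of its 2 windows), chr17:35424600-35424849 on the plus strand (H2-Q6), chr17:36042743-36042992 on the minus strand (H2-T22) and chr2:122147437-122147686 on the plus strand (B2m). Capitals mark a κB motif (GGG, 2 free bases, TT, 1 free base, CC), a class I interferon core (TTTCNCTTC, where N is any base) or an interferon-stimulated response element (ISRE, a pair of GAAA with 2 free bases between them), each searched on both strands.
H2-D1: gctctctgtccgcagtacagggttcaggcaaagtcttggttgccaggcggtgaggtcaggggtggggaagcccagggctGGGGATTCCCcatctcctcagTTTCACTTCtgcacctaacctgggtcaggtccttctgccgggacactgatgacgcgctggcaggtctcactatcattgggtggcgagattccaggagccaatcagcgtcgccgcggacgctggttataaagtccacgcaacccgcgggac
H2-K1: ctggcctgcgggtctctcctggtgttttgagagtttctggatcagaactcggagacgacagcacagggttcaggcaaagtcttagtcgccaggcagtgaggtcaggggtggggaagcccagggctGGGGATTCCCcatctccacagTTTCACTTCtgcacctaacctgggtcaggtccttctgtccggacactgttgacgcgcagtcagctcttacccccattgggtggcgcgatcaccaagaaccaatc
H2-Q6: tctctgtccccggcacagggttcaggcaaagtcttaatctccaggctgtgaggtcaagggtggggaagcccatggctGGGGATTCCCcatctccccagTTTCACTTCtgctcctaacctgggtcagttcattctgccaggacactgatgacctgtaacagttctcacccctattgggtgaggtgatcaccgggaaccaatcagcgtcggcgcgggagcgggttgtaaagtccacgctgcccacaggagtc
H2-T22: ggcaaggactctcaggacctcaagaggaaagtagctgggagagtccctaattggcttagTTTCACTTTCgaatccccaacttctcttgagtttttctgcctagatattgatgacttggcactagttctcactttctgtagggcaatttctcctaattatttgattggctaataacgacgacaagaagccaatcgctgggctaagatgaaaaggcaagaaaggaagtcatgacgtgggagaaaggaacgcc
B2m: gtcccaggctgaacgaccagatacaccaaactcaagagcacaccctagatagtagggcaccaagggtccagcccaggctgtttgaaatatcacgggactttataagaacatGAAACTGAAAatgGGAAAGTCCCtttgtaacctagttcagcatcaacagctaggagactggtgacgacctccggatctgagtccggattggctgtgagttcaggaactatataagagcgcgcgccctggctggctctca
In the classical and Qa genes a κB motif stood upstream of the interferon core. In H2-D1 it began 171 bases and the core 150 bases before the RefSeq start, and in H2-K1 they began 125 and 104 bases before it. The bases shown for H2-D1 lie wholly inside its gene span given above (35262730 to 35267499), so the annotations place its start differently. Part of the upstream bases of H2-T23 also lies inside its gene span. The κB letters were GGGGATTCCC in H2-D1, H2-K1, H2-Q6 and H2-Q7. H2-T22 and H2-T23 held an ISRE and neither of the other motifs, and B2m held an ISRE on the gene's strand and a κB motif on the other. The longest identical run was 47 bases between H2-D1 and H2-K1 and 66 bases between H2-Q6 and H2-Q7.

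Over all members, a κB motif was in the windows of 6 of 8 and in 4.79% of 32851 RefSeq promoter windows of the same length. The interferon core was in 5 of 8, in H2-D1, H2-K1, H2-Q4, H2-Q6 and H2-Q7, and in 2.44% of windows. The same 5 genes held both motifs, against 0.177% of windows. The ISRE was in 3 of 8 and in 3.44% of windows, and the CCAAT box in 8 of 8 and in 37.41%. The motif of the interferon core was picked after these sequences had been read, so its count describes them only. A match describes the letters only.

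Levels of different genes were compared per kilobase of exon. B2m had a mean level of 104 ± 23.9 CPM per kilobase (SD, n = 20 libraries), H2-D1 16.8 ± 4.75, H2-K1 11.0 ± 2.67, H2-T22 4.09 ± 0.502, H2-T23 2.57 ± 0.520, H2-Q4 1.22 ± 0.537, H2-Q6 0.302 ± 0.261 and H2-Q7 0.124 ± 0.0958. In each of the 20 libraries every gene stood above the next in this order, except that H2-Q6 was above H2-Q7 in 17 of 20. Over all libraries the ranges of B2m and H2-D1 did not overlap, nor did those of H2-K1 and H2-T22, while the ranges of the other neighbours did.

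LPS was compared with saline first, the comparison that asks which transcripts differed 7 days after the injection. H2-D1 and H2-Q6 rose after LPS over both genotypes, and all 8 members had a log2 fold change above 0 in KO, where 53.1% of all genes had one, and in WT (44.8%). The rises were 1.62-fold for H2-D1 and 4.30-fold for H2-Q6. H2-K1 was 1.46-fold higher at an adjusted p just above the threshold of 0.05. In bulk tissue, a change in the number of cells of a type and a change in RNA per cell cannot be told apart.

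H2-D1 stood at 58.4, 60.5, 55.3, 48.5 and 42.6 CPM in KO LPS libraries, against 27.2, 26.8, 26.2, 37.7 and 38.5 CPM in KO saline libraries. In WT mice the values were 64.4, 45.8, 51.7, 56.2 and 51.6 CPM after LPS and 33.9, 24.6, 38.5, 36.1 and 41.5 CPM after saline. Every LPS library of a genotype was above every saline library of it, as was true of 0.286% of all tested genes in KO and 0.274% in WT. The log2 fold change over both genotypes was 0.70 ± 0.11 (SE; 95% interval 0.47 to 0.92), with an edgeR quasi-likelihood Benjamini-Hochberg adjusted p of 0.0128. It was 0.76 ± 0.15 in KO (edgeR adjusted p = 0.170) and 0.63 ± 0.15 in WT (edgeR adjusted p = 1.00). Within the library sets it was 1.03 in replicates 1 and 2 alone (edgeR adjusted p = 0.487) and 0.49 in replicates 3 to 5 alone (edgeR adjusted p = 0.138). The difference between the sets was not tested.

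H2-K1, the other classical chain, showed the same separation. Its libraries read 39.3, 37.5, 39.4, 35.0 and 30.1 CPM in KO LPS, against 20.4, 21.1, 22.2, 28.6 and 29.4 CPM in KO saline. WT LPS libraries had 43.7, 35.1, 42.3, 38.8 and 43.8 CPM, against 28.3, 18.9, 27.2, 33.1 and 34.5 CPM in WT saline libraries. No LPS library of a genotype overlapped its saline libraries. The log2 fold change over both genotypes was 0.55 ± 0.10 (95% interval 0.33 to 0.77; edgeR adjusted p = 0.0548). With the replicate number as a block it was 0.57 ± 0.09 and passed (edgeR adjusted p = 0.00639), as it did in limma-voom (adjusted p = 0.0239) and DESeq2 (adjusted p = 5.79e-04). Of 20 fits without 1 library it passed in 2, those without replicate 5 of WT saline (edgeR adjusted p = 0.0352) or of KO saline (0.0450). The highest edgeR adjusted p of these 20 fits was 0.155. It did not pass with DESeq2 size factors in edgeR (edgeR adjusted p = 0.0533), without the filter on low counts (0.0769) or with a stricter filter (0.0515). It was 0.82 in replicates 1 and 2 alone and 0.39 in replicates 3 to 5 alone, called in neither.

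B2m, which every heavy chain pairs with, had 78.4, 111, 112, 110 and 115 CPM in KO LPS libraries and 54.5, 67.4, 69.2, 86.7 and 94.4 CPM in KO saline libraries. It had 89.6, 70.4, 107, 109 and 114 CPM in WT LPS libraries and 67.4, 51.3, 91.3, 87.8 and 101 CPM in WT saline libraries. The pooled groups overlapped, but within each library set and genotype LPS and saline libraries did not overlap. H2-D1, H2-K1 and B2m were the 3 members with this within-set separation, which 16 tested genes, or 0.0974%, had. The log2 fold change over both genotypes was 0.40 ± 0.13 (95% interval 0.12 to 0.67; edgeR adjusted p = 1.00). With the replicate block it was 0.42 ± 0.08 and passed (edgeR adjusted p = 0.0285). DESeq2 (adjusted p = 0.632) and limma-voom (adjusted p = 0.111) did not call B2m, nor did any of 20 fits without 1 library. The log2 fold change was 0.54 ± 0.17 in replicates 1 and 2 alone and 0.33 ± 0.06 in replicates 3 to 5 alone.

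**Figure D1:**
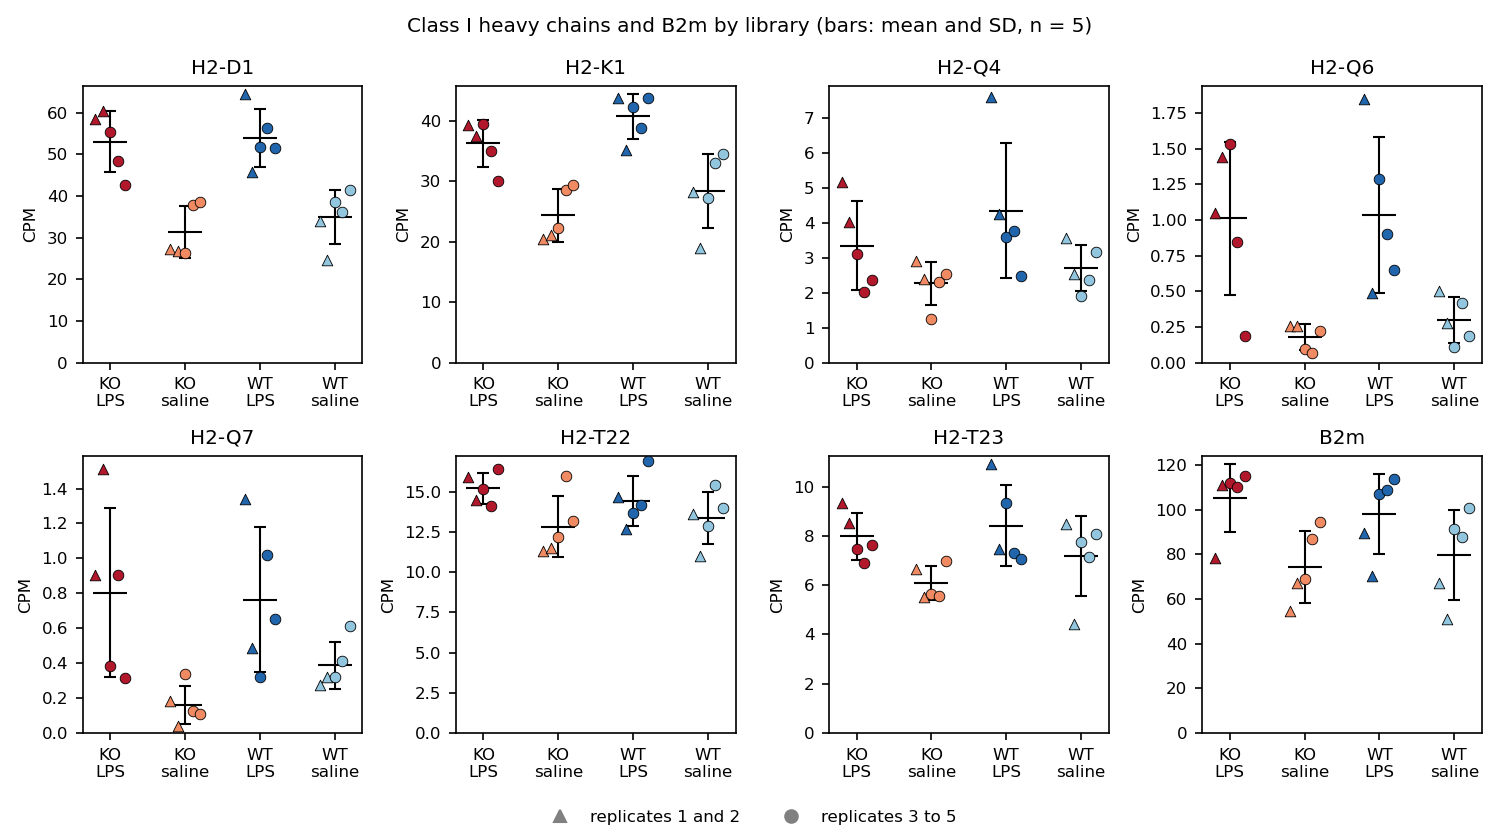
Level of each member in CPM by group (x axis, KO LPS, KO saline, WT LPS and WT saline), 1 point per library, with triangles for replicates 1 and 2, circles for replicates 3 to 5, and bars for the mean and SD of 5 libraries. H2-D1 and H2-K1 show no overlap between LPS and saline libraries of a genotype, while the other 6 members overlap in both.

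The Qa heavy chains were scarce and had a wide spread. H2-Q6 had 29, 42, 28, 15 and 3 counts in KO LPS libraries and 7, 6, 2, 1 and 4 counts in KO saline libraries. In WT mice it had 47, 12, 20, 15 and 10 counts after LPS and 11, 6, 2, 7 and 3 counts after saline. In each genotype 4 of 5 LPS libraries were above every saline library in CPM, and 1 was not. The log2 fold change over both genotypes was 2.11 ± 0.37 (95% interval 1.32 to 2.89; edgeR adjusted p = 0.0377). In KO it was 2.43 ± 0.53 (edgeR adjusted p = 0.416) and in WT 1.78 ± 0.51 (edgeR adjusted p = 1.00). It was 1.93 ± 0.49 in replicates 1 and 2 alone and 2.35 ± 0.48 in replicates 3 to 5 alone.

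Without any 1 library the log2 fold change of H2-Q6 stayed at 1.94 to 2.25, while its adjusted p moved across the threshold. Leaving out any 1 of 16 of the 20 libraries ended the call, with edgeR adjusted p-values of 0.0643 to 0.125. It stayed only without WT saline replicate 1, WT LPS replicate 2, WT LPS replicate 5 or KO LPS replicate 5 (edgeR adjusted p = 0.00975 to 0.0496). H2-D1 passed without any 1 library, with edgeR adjusted p-values of 0.00975 to 0.0410.

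H2-Q7 aligned to H2-Q6 at 94.7% identity over 1031 bases of transcript. It had 25, 44, 7, 16 and 5 counts in KO LPS libraries and 5, 1, 7, 2 and 2 counts in KO saline libraries. WT LPS libraries had 34, 12, 5, 17 and 10 counts and WT saline libraries 6, 7, 6, 7 and 10 counts. Both genotypes overlapped, and the log2 fold change was 1.65 ± 0.36 over both (95% interval 0.90 to 2.41; edgeR adjusted p = 0.194; DESeq2 adjusted p = 0.0196). H2-Q4 ran from 2.03 to 5.18 CPM in KO LPS and from 1.25 to 2.90 CPM in KO saline libraries, and from 2.48 to 7.61 CPM in WT LPS and from 1.92 to 3.56 CPM in WT saline libraries. Its log2 fold change was 0.63 ± 0.21 (edgeR adjusted p = 1.00). Within the library sets, H2-Q7 had 2.47 ± 0.53 in replicates 1 and 2 alone and 0.99 ± 0.42 in replicates 3 to 5 alone, while H2-Q4 had 0.88 ± 0.24 in replicates 1 and 2 alone and 0.37 ± 0.20 in replicates 3 to 5 alone. Without WT LPS replicates 1 and 4 and KO LPS replicate 1, H2-Q4 had 0.35 ± 0.20 and H2-Q7 1.30 ± 0.38.

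The T-region chains had the smallest differences. H2-T23 averaged 7.98 ± 0.966 CPM in KO LPS and 6.07 ± 0.688 CPM in KO saline libraries, and 8.41 ± 1.65 CPM in WT LPS and 7.18 ± 1.61 CPM in WT saline libraries (SD, n = 5 each). Its log2 fold change over both genotypes was 0.31 ± 0.12 (edgeR adjusted p = 1.00). H2-T22 averaged 15.2 ± 0.957 CPM in KO LPS and 12.8 ± 1.94 CPM in KO saline libraries, and 14.4 ± 1.57 CPM in WT LPS and 13.4 ± 1.62 CPM in WT saline libraries. Its log2 fold change was 0.18 ± 0.08 (edgeR adjusted p = 1.00), and the groups of both genes overlapped in both genotypes. Within the library sets, H2-T23 had 0.53 ± 0.22 in replicates 1 and 2 alone and 0.16 ± 0.10 in replicates 3 to 5 alone, while H2-T22 had 0.29 ± 0.12 in replicates 1 and 2 alone and 0.11 ± 0.09 in replicates 3 to 5 alone.

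Counted together over both genotypes, 2 of 8 members passed, both higher, where 0.0426% of all tested genes, or 7 of them, did. All 8 had an unadjusted p under 0.05 (2.71% of all genes), and all 8 were above 0 (49.3%). The median log2 fold change of the members was 0.59, against 0.00 over all tested genes. Within KO alone 0 of 8 passed edgeR's test, where 1 gene, or 0.00609%, passed, and 7 had an unadjusted p under 0.05 (1.75% of all genes). DESeq2 called H2-D1 (adjusted p = 0.00364) and H2-Q6 (0.0488) there, where it called 0.0427% of genes, and limma-voom called 0. A term for the library set called H2-D1 there (edgeR adjusted p = 0.0453), with 0.0426% of genes called. Within WT alone 0 of 8 passed edgeR's test, where 0% of genes passed, 4 had an unadjusted p under 0.05 (2.07%), and DESeq2 and limma-voom also called 0. The replicate block called 4 members over both genotypes (H2-D1, H2-K1, H2-Q6 and B2m), where 0.164% of genes passed. A term for the library set called the same 4 (0.146% of genes), DESeq2 called 4 (0.116%), limma-voom 3 (0.104%), replicates 1 and 2 alone 0 (0%) and replicates 3 to 5 alone 0 (0.0322%). Without WT LPS replicates 1 and 4 and KO LPS replicate 1, both calls ended, with 0 members (0.00603% of genes) and 0 with the replicate block as well (0.0241%). Of these 3 libraries, only the 2 from WT LPS stood above all others in thalamus markers.

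**Figure D2:**
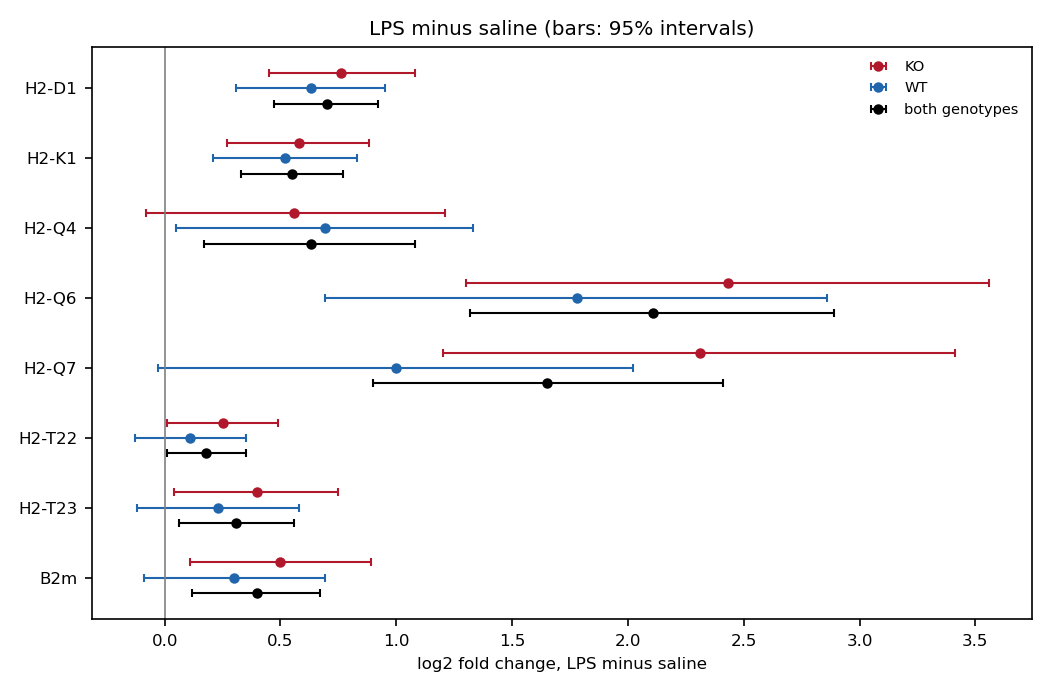
log2 fold change of LPS minus saline (x axis) for each member in KO, in WT and over both genotypes, with bars for the 95% interval. Over both genotypes all 8 intervals lie above 0, from 0.18 for H2-T22 to 2.11 for H2-Q6, and those of the Qa genes are the widest.

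Summed over the 7 heavy chains, expression was 118 ± 13.2 CPM in KO LPS and 77.2 ± 12.4 CPM in KO saline libraries (SD, n = 5 each). It was 124 ± 13.6 CPM in WT LPS and 87.3 ± 15.2 CPM in WT saline libraries. The log2 ratio of these means was 0.61 in KO and 0.50 in WT. H2-D1 made up 42.8% to 47.3% of the sum in KO LPS and 38.6% to 42.4% in KO saline libraries, and 41.9% to 46.0% in WT LPS and 38.0% to 43.4% in WT saline libraries. The ratio of the heavy chain sum to B2m, both in CPM, was 1.15 ± 0.305 in KO LPS and 1.05 ± 0.123 in KO saline. It was 1.29 ± 0.249 in WT LPS and 1.12 ± 0.143 in WT saline, with overlapping ranges in both genotypes. Per kilobase of exon, the unit used above to compare genes, the ratio ran from 0.264 to 0.512 over the 20 libraries.

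The comparison of genotypes asked whether the loss of Fkbp5 altered class I transcripts. No member passed in any genotype comparison. Over both treatments, the log2 fold change of KO against WT was -0.09 ± 0.11 for H2-D1 (95% interval -0.32 to 0.13), -0.20 ± 0.10 for H2-K1 (-0.41 to 0.02) and 0.00 ± 0.13 for B2m (-0.27 to 0.28). The scarce genes had wide intervals, from -1.13 to 0.42 for H2-Q6 and from -1.32 to 0.18 for H2-Q7. In replicates 1 and 2 alone it was 0.02 ± 0.14 for H2-D1, -0.09 ± 0.14 for H2-K1 and 0.17 ± 0.17 for B2m, and in replicates 3 to 5 alone -0.16 ± 0.09, -0.25 ± 0.08 and -0.07 ± 0.06. The value nearest the threshold within a set was that of H2-K1 in replicates 3 to 5 (edgeR adjusted p = 0.0745), a fit that called 1257 of 15523 genes. Over both treatments 0 of 8 members had an unadjusted p under 0.05 in edgeR (4.79% of all genes did), and DESeq2 and limma-voom called 0 of 8. Of all tested genes edgeR called 72, or 0.439%, DESeq2 122 and limma-voom 540.

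After saline all 8 members were below 0 in KO against WT, by a median of -0.23, where 44.5% of all genes were above 0. H2-Q7 had the largest difference, with 0.160 ± 0.111 CPM in KO saline and 0.389 ± 0.135 CPM in WT saline (SD, n = 5 each). Its log2 fold change was -1.23 ± 0.55 (95% interval -2.39 to -0.06; edgeR adjusted p = 1.00). It was the 1 member with an unadjusted p under 0.05 (2.67% of all genes), and edgeR, DESeq2 and limma-voom called 0 of 8. Of all tested genes edgeR called 28, or 0.171%, DESeq2 48 and limma-voom 370. Microglia markers were above 0 in 1 of 8 in this comparison (median -0.13), and endothelial markers in 0 of 9 (median -0.11). Of the 83 other tested genes between H2-K1 and H2-T22, 32.5% were above 0. Their part in the class I values was not tested. After LPS 3 of 8 members were above 0, as were 50.5% of all genes, and the values ran from -0.37 for H2-Q4 to 0.10 for B2m. Again 0 of 8 passed, 0 had an unadjusted p under 0.05 (3.27% of all genes), and the other tools called 0 of 8. Here edgeR called 24 of all tested genes, or 0.146%, DESeq2 53 and limma-voom 62.

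The interaction tested whether the response to LPS differed between the genotypes. It was 0.14 ± 0.21 for H2-D1 (95% interval -0.31 to 0.58), 0.06 ± 0.20 for H2-K1 (-0.38 to 0.49) and 0.20 ± 0.26 for B2m (-0.35 to 0.75). The largest was that of H2-Q7, 1.31 ± 0.71 (95% interval -0.19 to 2.81; edgeR unadjusted p = 0.0792, adjusted p = 1.00). With edgeR 0 of 8 members passed and 0 had an unadjusted p under 0.05 (1.11% of all genes), DESeq2 and limma-voom called 0, and edgeR called 0% of all genes. The intervals do not show that the genotypes responded alike.

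**Figure D3:**
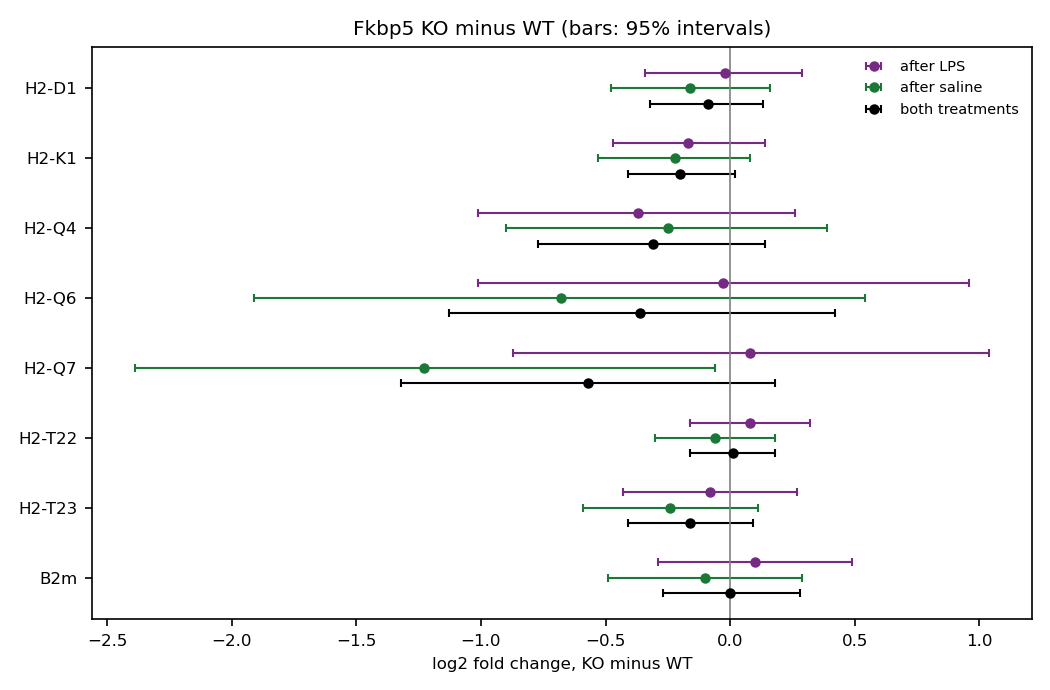
log2 fold change of KO minus WT (x axis) for each member after LPS, after saline and over both treatments, with bars for the 95% interval. Of the 24 intervals 23 include 0, and that of H2-Q7 after saline ends at -0.06.

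The heavy chains share the Fkbp5 chromosome, so their neighbours were counted. Within 20 Mb of Fkbp5, 529 genes were tested and 8 passed in KO against WT over both treatments, or 1.51%, Fkbp5 among them. None of those 8 was a heavy chain, and none of the 83 other tested genes between H2-K1 and H2-T22 passed. The calls lay from 2.31 Mb on one side to 2.40 Mb on the other side of Fkbp5, while the nearest heavy chain lies 5.48 Mb away. For LPS over both genotypes, H2-D1 and H2-Q6 were the 2 calls among the 529 genes, and 0 of the other 522 passed. Of these, 26 or 4.98% had an unadjusted p under 0.05, against 2.59% of the genes farther from Fkbp5 or on other chromosomes. Of the 83 between H2-K1 and H2-T22, 7.23% had an unadjusted p under 0.05 and 68.7% were above 0, against 48.9% of those other genes. The files hold counts per gene and no sequence of the animals, so the class I haplotype of the KO line was not tested.

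**Figure D4:**
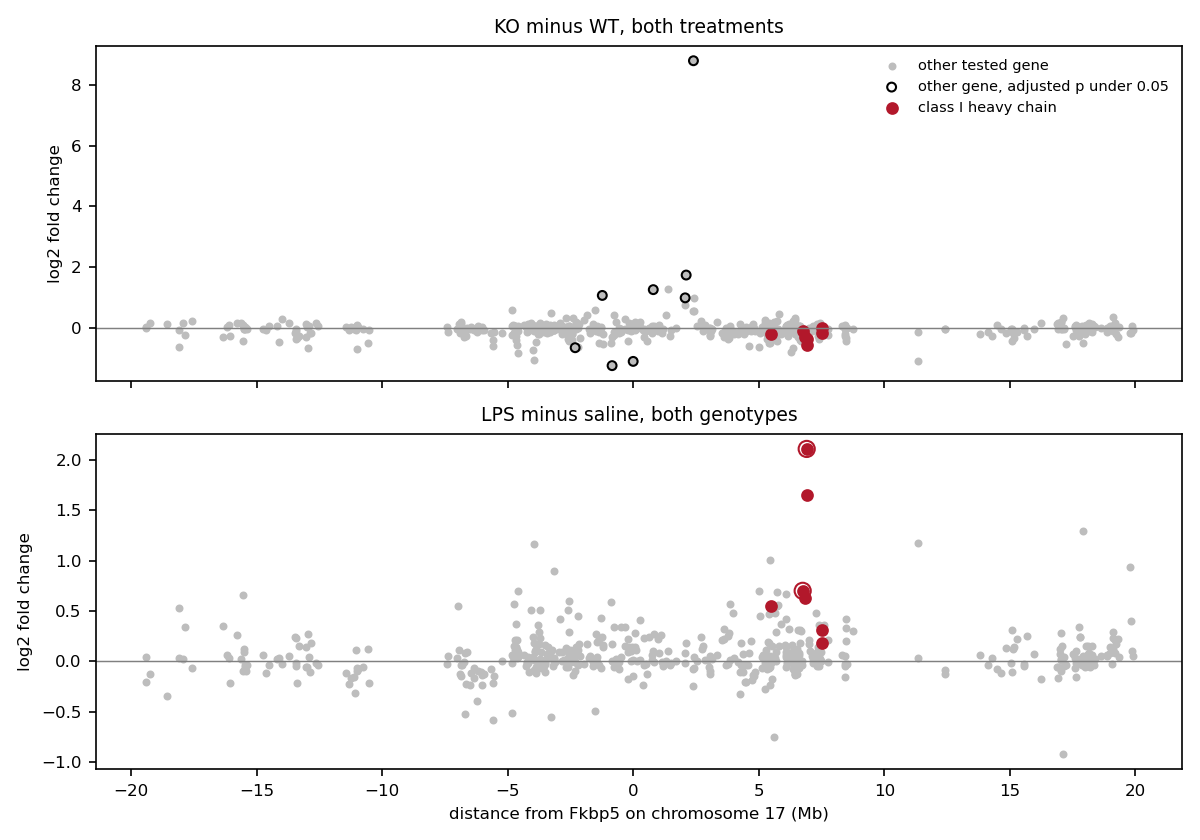
log2 fold change (y axis) of tested genes within 20 Mb of Fkbp5 by distance from it in Mb (x axis), for KO minus WT over both treatments (top) and LPS minus saline over both genotypes (bottom), with heavy chains in red and ringed points at adjusted p under 0.05. The 8 ringed genes of the top panel lie within 2.40 Mb of Fkbp5, and the 2 ringed points of the bottom panel are heavy chains.

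Reads can be shared between paralogs. Annotated transcripts (GENCODE M21) were split into all windows of 100 bases, and a window was counted as shared where another gene held it in full on either strand. B2m shared 0.0% of its windows, H2-K1 1.0%, H2-T23 3.2%, H2-D1 3.6%, H2-Q7 12.0%, H2-Q6 13.0%, H2-Q4 14.1% and H2-T22 31.5%. For H2-T22 and H2-Q4 most of the sharing was with genes that had few counts, which does not show how many reads were shared. H2-D1 shared 3.0% and H2-Q6 9.9% of windows with other members. H2-T22 shared 24.0% with antisense A930015D03Rik and 6.9% with H2-T10, which had 274 counts over 20 libraries, and H2-Q4 shared 11.8% with Gm11131. H2-Q6 shared 8.4% of its windows with H2-Q7, and the best alignment of the 2 transcripts was 94.7% identical over 1031 bases. With windows of 50 bases, H2-Q6 shared 5.5% with the far more abundant H2-D1. How reads that map to several genes were counted is not given in the sources used here. The split of reads between H2-Q6 and other members, H2-Q7 above all, is therefore uncertain, and that of the classical genes less so. Whether reads of H2-D1 were counted for H2-Q6 was not tested.

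**Figure D5:**
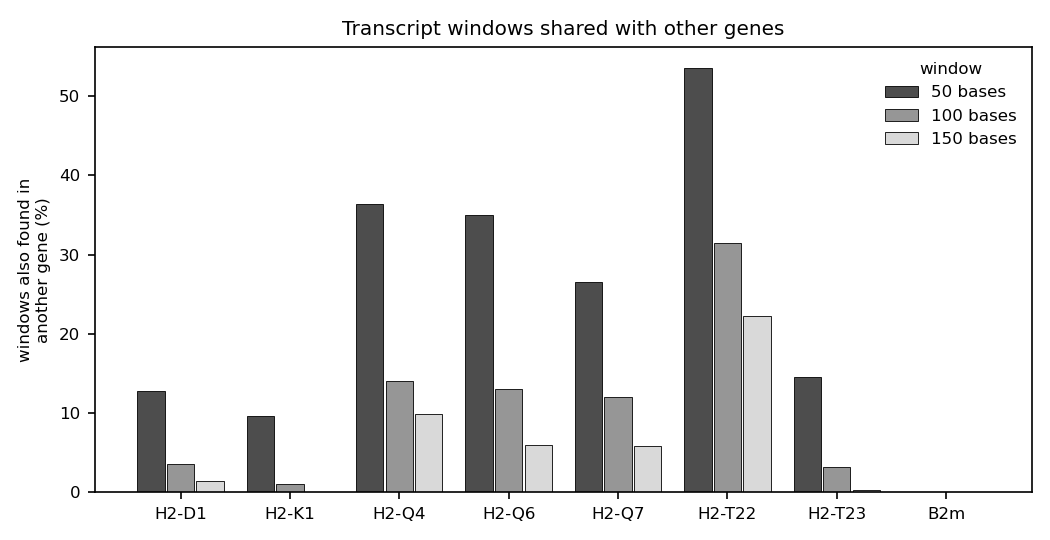
Share of each member's transcript windows (y axis, percent) that another gene also holds, for windows of 50, 100 and 150 bases. B2m shares none, H2-K1 and H2-D1 share 1.0% and 3.6% of windows of 100 bases, and H2-T22 shares most at every length.

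The H2 complex held 24 further class I genes by symbol. Of these, 12 had no count in any library and 5 were tested, namely H2-T24, H2-M3, H2-K2, H2-M5 and H2-T10. None of the 5 passed edgeR's test in any comparison, and DESeq2 and limma-voom also called 0. H2-M3, which presents N-formylated peptides, stood at 2.09 ± 0.347 CPM in KO LPS and 1.43 ± 0.393 CPM in KO saline libraries, and at 1.82 ± 0.267 CPM in WT LPS and 1.76 ± 0.378 CPM in WT saline libraries (SD, n = 5 each). Its log2 fold change for LPS was 0.54 ± 0.22 in KO and 0.05 ± 0.22 in WT (edgeR adjusted p = 1.00 in both), and the interaction was 0.49 ± 0.31.

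Genes that load peptide onto class I molecules were counted from a list. For LPS over both genotypes 0.0426% of all tested genes passed edgeR's test, 2.71% had an unadjusted p under 0.05 and 49.3% were above 0. With so few calls, 0 in a short list does not show that its genes were unchanged. The same holds for the lists that follow. Of 8 tested genes of peptide loading 0 passed edgeR's test for LPS over both genotypes, 1 had an unadjusted p under 0.05, and the median log2 fold change was -0.01. That gene was Tapbp (tapasin, which bridges heavy chains to the peptide transporter), at 22.6 CPM in KO LPS and 20.4 CPM in KO saline, and 24.3 CPM in WT LPS and 21.1 CPM in WT saline, and a log2 fold change of 0.18 ± 0.08. Tapbpl, a peptide editor, had -0.10 ± 0.09. Tap1 and Tap2, the subunits of the peptide transporter, had 0.00 ± 0.12 and 0.09 ± 0.12.

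The immunoproteasome cuts proteins into peptides fit for class I molecules. Of its 5 listed genes, activator subunits included, 0 passed and 0 had an unadjusted p under 0.05 (edgeR, LPS over both genotypes), with a median of 0.04. Psmb8, a catalytic subunit, had 2.93 CPM in KO LPS and 2.39 CPM in KO saline, and 3.58 CPM in WT LPS and 2.95 CPM in WT saline, and a log2 fold change of 0.29 ± 0.19. Psmb10, another catalytic subunit, had 0.10 ± 0.13.

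Upstream regulators were also listed. Of 12 tested transcriptional activators of class I genes 0 passed and 0 had an unadjusted p under 0.05 (edgeR), with a median of 0.04. Rela, an NF-κB subunit, had a log2 fold change of 0.14 ± 0.07, and Rfxank, a subunit of the RFX complex that binds class I and class II promoters, 0.23 ± 0.15. Nlrc5, the class I transactivator, had 134 counts over 20 libraries and was not tested. Of 10 tested genes of interferon signalling 0 passed and 1 had an unadjusted p under 0.05 (edgeR), with a median of 0.09. This was Irf7, the interferon-induced amplifier of type I interferon, at 1.98 CPM in KO LPS and 1.37 CPM in KO saline, and 2.55 CPM in WT LPS and 1.45 CPM in WT saline. Its log2 fold change was 0.67 ± 0.18 (edgeR adjusted p = 0.643). Irf9, the DNA-binding subunit of the complex that reads the ISRE, had 0.35 ± 0.26. Ifng had 1 count over 20 libraries and Ifnb1 had 0. DESeq2 called 0 genes of these 4 lists for this comparison, and limma-voom called 1, Irf7.

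Markers of cells that carry class I molecules are given beside the class I values. The 8 microglia markers had a median log2 fold change of 0.14 for LPS over both genotypes, with 6 of 8 above 0 (49.3% of all genes). Of them 0 had an unadjusted p under 0.05 in edgeR (2.71% of all genes), and edgeR, DESeq2 and limma-voom called 0. Their sum was 260 to 465 CPM in KO LPS and 268 to 403 CPM in KO saline libraries, and 290 to 517 CPM in WT LPS and 283 to 497 CPM in WT saline libraries. The 9 endothelial markers had a median of 0.09 (8 of 9 above 0), with sums of 162 to 264 CPM in KO LPS, 147 to 222 in KO saline, 225 to 276 in WT LPS and 163 to 279 in WT saline. Of 11 T and NK cell markers 1, Lck, passed the filter on low counts. Their sum was 2.26 to 3.08 CPM in KO LPS and 1.63 to 2.47 CPM in KO saline, and 1.66 to 3.59 CPM in WT LPS and 1.25 to 2.29 CPM in WT saline. Cd3e averaged 0.127 CPM in KO LPS and 0.0313 CPM in KO saline, and 0.0717 CPM in WT LPS and 0.0184 CPM in WT saline, and Cd8a at most 0.0568 CPM in a group.

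Markers of blood and of tissue beside the hippocampus are given too. The 5 red cell markers had a median log2 fold change of 0.97 (5 of 5 above 0), with sums of 3.80 to 81.6 CPM in KO LPS, 1.79 to 56.4 in KO saline, 4.58 to 85.6 in WT LPS and 1.05 to 78.1 in WT saline. The 6 neutrophil and monocyte markers, none of which passed the filter on low counts, summed to 0.734 to 1.44 CPM in KO LPS and 0.298 to 0.774 in KO saline, and to 1.22 to 1.50 in WT LPS and 0.0914 to 1.22 in WT saline. The 10 thalamus markers had a median of 0.18, with 9 of 10 above 0 (49.3% of all genes) and 3 at an unadjusted p under 0.05 in edgeR (2.71%). Without WT LPS replicates 1 and 4 and KO LPS replicate 1, no member passed edgeR's test. The log2 fold change was then 0.62 ± 0.12 for H2-D1 (edgeR adjusted p = 0.187), 0.53 ± 0.12 for H2-K1 (0.333), 1.91 ± 0.41 for H2-Q6 (0.333), 0.44 ± 0.14 for B2m, 0.24 ± 0.12 for H2-T23 and 0.17 ± 0.09 for H2-T22 (1.00 for these 3). Of the 6 choroid plexus markers 3 were above 0 (median 0.01), and DESeq2 called 1, Otx2, where edgeR called 0 and 1 had an unadjusted p under 0.05. The 8 meningeal markers had a median of -0.34 in KO (0 of 8 above 0) and 0.62 in WT (7 of 8), with sums of 70.4 to 105 CPM in KO LPS, 60.9 to 155 in KO saline, 59.1 to 134 in WT LPS and 47.0 to 102 in WT saline. The 6 border macrophage markers had a median of -0.54 in KO (0 of 6) and 0.14 in WT (5 of 6). The 6 astrocyte markers had a median of -0.06 over both genotypes, and none of the 4 B cell markers passed the filter on low counts. The part of these cells and tissues in the class I differences was not tested.

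The library sets also differed in class I transcripts. B2m stood at 99.8 ± 14.1 CPM in replicates 3 to 5 (SD, n = 12) and 73.7 ± 19.3 CPM in replicates 1 and 2 (n = 8). The difference of replicates 3 to 5 minus 1 and 2 was 0.45 ± 0.08 on the log2 scale (edgeR adjusted p = 5.67e-05). H2-Q4 was lower in replicates 3 to 5, with 2.58 ± 0.727 CPM there and 4.06 ± 1.72 CPM in replicates 1 and 2, a difference of -0.62 ± 0.16 (edgeR adjusted p = 0.00202). The other 6 members did not pass, while 64.3% of all tested genes did. Microglia markers summed to a mean of 389 to 483 CPM over the groups in replicates 3 to 5 and of 286 to 311 CPM in replicates 1 and 2.

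Likeness to H2-D1 and B2m was measured in each library set as the correlation of log2 CPM across libraries, taking the lower of both values (8 and 12 libraries). The libraries share treatment groups and depth, so these values are descriptions. H2-K1 was most like H2-D1 of all tested genes, at 0.91, and B2m stood at 0.88. AU020206, a long noncoding RNA, stood at 0.83 and rank 4. Among named genes other than the 8 members, with predicted genes and clone names such as AU020206 left out, the closest to H2-D1 were Lgals3bp (a galectin-binding glycoprotein, 0.90), Unc93b1 (a carrier of nucleic acid-sensing Toll-like receptors, 0.83), Gpr84 (a fatty acid receptor of myeloid cells, 0.81), Tlr2 (a receptor for bacterial lipoproteins, 0.81) and Slc11a1 (a metal transporter of phagosomes, 0.79). The closest to B2m were Ctss (the lysosomal protease cathepsin S, 0.91), Lgals3bp (0.84), C1qa (a chain of complement C1q, 0.83), Ptpn6 (the phosphatase SHP-1, 0.82) and Itgb5 (integrin β5, 0.81). H2-Q6 and H2-Q4 were also close to H2-D1, at 0.81 and 0.79, while H2-T23, H2-Q7 and H2-T22 were at 0.58, 0.50 and 0.43.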

How the data were processed

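Per the labels, libraries were made with NEBNext Ultra reagents from 1 µg of total hippocampal RNA. Reads were trimmed with Trimmomatic 0.38, inspected with FastQC and MultiQC and counted with featureCounts 1.6.0 on mm10, per the submitters' processing notes. The aligner, annotation release and strand setting are not given in the sources used here. The authors deposited raw counts per gene in 20 libraries, neither normalized nor filtered. Every value column was used.

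All gene identifiers matched GENCODE M21. Tests used edgeR 4.0.16 in R 4.3.3 (TMM, filterByExpr, robust quasi-likelihood F test) in 1 fit of the 4 groups, with Benjamini-Hochberg adjustment over 16419 genes and a threshold of 0.05. Intervals are the estimate ± 2.12 SE (16 degrees of freedom). CPM are edgeR's with TMM factors, computed from the counts. The 7 comparisons are the 6 contrasts of treatment and genotype and their interaction. Named genes are the members, other H2 class I genes, the 5 genes most like H2-D1 and B2m, and for each pathway list its called genes or the 2 with the smallest p. Tap1, Tap2, Nlrc5, Ifng, Ifnb1, AU020206 and single genes of the marker and receptor lists are named outside this rule, after their values were seen. The members and lists were chosen with earlier results of these data known. The fit was tested on simulated counts with 200 changed genes, all with expected counts above 200 per library. The simulation held no difference between library sets, and scarce genes such as H2-Q6 and H2-Q7 were outside its range.

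What a replicate number marks is not stated. Once group means were removed, each of 30 library pairs sharing a number correlated (0.264 to 0.854), and so did pairs of unlike number within a set (0.191 to 0.672). Without set means, like-numbered pairs among replicates 3 to 5 had a median of 0.0156. Alternatives were other normalizations, filters and tools (limma 3.58.1, DESeq2 1.42.0), the replicate block, the library sets and leaving out libraries. Counting error at these depths is smallest for B2m and largest for H2-Q6 and H2-Q7.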

Additional observations from a re-analysis of the deposited data

Results flagged for a closer look

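B2m in KO LPS libraries had 1 value far from the others when the library sets were pooled. Replicate 1 stood at 78.4 CPM, the nearest of the other 4 at 110 CPM and the highest at 115 CPM, so the gap was 0.870 of the group's range, above the limit of 0.71 for 5 values. Among 36 groups of values examined, those of the heavy chain sum included, this was the 1 so marked. Chance marks about 1 group in 20, so 1 mark among 36 is not unusual. B2m was lower in replicates 1 and 2 of the series, at 73.7 ± 19.3 CPM (SD, n = 8), than in replicates 3 to 5, at 99.8 ± 14.1 CPM (n = 12). The value of 78.4 CPM lay between those of WT LPS replicates 1 and 2 (89.6 and 70.4 CPM). In that library H2-D1 (58.4 CPM) and H2-K1 (39.3 CPM) were not the lowest of their group. Its microglia markers summed to 260 CPM, the lowest of the 5, where replicates 1 and 2 of the groups averaged 286 to 311 CPM. Without it the B2m log2 fold change for LPS over both genotypes was 0.44 ± 0.13 (edgeR adjusted p = 0.857), against 0.40 ± 0.13 with it.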

How the results depend on the processing

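For LPS against saline over both genotypes, 2 members passed. DESeq2 called 4 (H2-D1, H2-K1, H2-Q6 and H2-Q7), and the replicate block and a term for the library set called 4 each (H2-D1, H2-K1, H2-Q6 and B2m). Replicates 1 and 2 alone and replicates 3 to 5 alone called 0. So did the fit without WT LPS 1 and 4 and KO LPS 1, with and without the replicate block. Those fits hold fewer libraries. Leaving out 1 library gave 1 to 2 calls. In KO alone, where 0 passed, DESeq2 called 2 and the library set term 1 (H2-D1). Counts for WT, the genotype comparisons and the interaction were 0 under every alternative run. The replicate block changed no other call. Of 1437 single-gene values under the alternatives, 55 had another sign than the reported one, none called, and 54 of them were within 1 SE of it. Counts of 1 to 47 per library limit H2-Q6 and H2-Q7.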

Other observations

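Class I-like genes outside the H2 complex, some of which pair with B2m, had fold changes of one sign that did not pass. All 5 tested genes were above 0 for LPS over both genotypes (49.3% of all genes), with a median log2 fold change of 0.13. Of them edgeR, DESeq2 and limma-voom called 0, and 0 had an unadjusted edgeR p under 0.05 (2.71% of all genes). Cd1d1, which presents lipids to NKT cells, stood at 0.624 CPM in KO LPS and 0.525 CPM in KO saline, and at 0.740 CPM in WT LPS and 0.412 CPM in WT saline (log2 fold change 0.54 ± 0.27). Mr1, which presents vitamin B metabolites to MAIT cells, had 0.10 ± 0.12.

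Transcripts of 10 genes, listed as receptors of class I or class I-like molecules or their signalling chain Cd247, did not pass the filter on low counts. They summed to 0.251 to 1.10 CPM in KO LPS and 0.192 to 0.724 CPM in KO saline libraries, and to 0.261 to 1.66 CPM in WT LPS and 0.160 to 0.784 CPM in WT saline libraries. Pirb, an inhibitory receptor known to bind class I molecules on neurons and myeloid cells, had the most, at 125 counts over 20 libraries.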
